A study of Rattus norvegicus with 8 samples.

Results

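The 10 genes described here code for heme oxygenase and for antioxidant enzymes and metal-binding proteins of the cell: Hmox1, Nqo1, Gclc, Gclm, Txnrd1, Sod1, Sod2, Gpx1, Mt1a and Mt3. They were taken from the array by name, as the non-control spots whose gene name equals one of them, and make up 10 of the 35250 gene names on the array. The array carried 15 probes for them on 24 spots. RNA came from the dentate gyrus (DG), the part of the hippocampus that holds the granule cells, of 8 female adult Sprague-Dawley rats. All 8 rats were ovariectomized (OVX) and all underwent status epilepticus (SE), a prolonged seizure, after kainic acid. The COS group of 4 rats received oil, and the CES group of 4 rats received E2 in 4 doses of 2 μg at intervals of 24 h. The sample records place 2 of these doses before SE and the others after it, give 16 mg/kg of kainic acid, and have SE ended by pentobarbital after 5 h. The study's methods name 17β-estradiol benzoate and peanut oil, place all doses before SE, and give another dose of kainic acid and diazepam in place of pentobarbital. Its methods also place the collection of tissue once at a day after SE and once within hours of the onset of seizures, and nothing in the files decides between these accounts. No OVX rat without SE (CON or CEN) was analysed here, so the values compare seizured rats only and give no level before SE. The comparison addresses how E2 replacement alters the DG transcriptome after SE.

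Reactive oxygen species and free heme are produced when neurons fire without pause and when tissue is injured, and cells answer with a shared set of genes. The transcription factor Nrf2, coded by Nfe2l2, is held and degraded by Keap1 until electrophiles or oxidants modify Keap1. It then binds, with a small Maf protein, to the antioxidant response element (ARE) of genes such as Hmox1, Nqo1, Gclc, Gclm and Txnrd1. Metallothionein genes are driven mainly by the zinc sensor Mtf1 through metal response elements (MRE), and the classic members are also raised by glucocorticoids and cytokines. Hmox1 is low in the uninjured brain and is induced in microglia, macrophages and astrocytes after seizures, whereas the superoxide dismutases and Mt3 are expressed in the brain at all times.

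Each array held a pair of rats of the same group, 1 labeled with Cy3 and 1 with Cy5, and all 4 arrays lay on 1 slide. A level is the log2 of the background-subtracted signal of a gene relative to the median of the valid spots of its channel, so a difference of 1 is a 2-fold change. Levels of different genes come from different probes and are not set against each other. Spots with a foreground 2 or more times their background were taken as valid, 32381 to 38553 in a COS rat and 30690 to 35352 in a CES rat. CES was compared with COS by limma over all 21372 gene names with a spot valid in all 8 rats, and a gene was called at an adjusted p under 0.05. The all-gene median of the difference, CES minus COS, was −0.25. With a scaling over only those spots that were valid in every rat this median moved to 0.15, so each difference is also given after subtracting the all-gene median. The library of COS replicate 4 gave the lowest COS level for 84.3% of all genes tested, including 8 of the 9 members tested. Markers of DG neurons such as Calb1 and Snap25 were well above background in every rat, while spots for Prox1 and Rbfox3 were not valid in all rats.

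Of the 10 genes, 9 had a spot valid in all 8 rats. At an adjusted p under 0.05, 7 of these were lower in CES than in COS, against 28.3% of all genes tested, and 1 was higher, against 5.79%. The 7 lower ones were Hmox1, Mt1a, Txnrd1, Nqo1, Sod2, Gpx1 and Gclc, the higher one was Mt3, and Sod1 was not called. For each of the 7, every CES rat lay below every COS rat, which held for 19.8% of all genes, and for Mt3 all CES rats lay above all COS rats, which held for 1.61%. The median difference of the 9 members was −1.10, against −0.25 for all genes. With loess on each array and Aquantile across arrays, 5 members were lower, against 8.87% of all genes, and 1 was higher, against 14.2%. All 9 were marked well above background by the scanner software in all 8 rats. The number of lower members was 3 without COS replicate 3, with Nqo1, Sod2 and Txnrd1 still called. Without that rat the calls over all genes also fell, from 7292 to 1194 in both directions together.

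**Figure D1:**
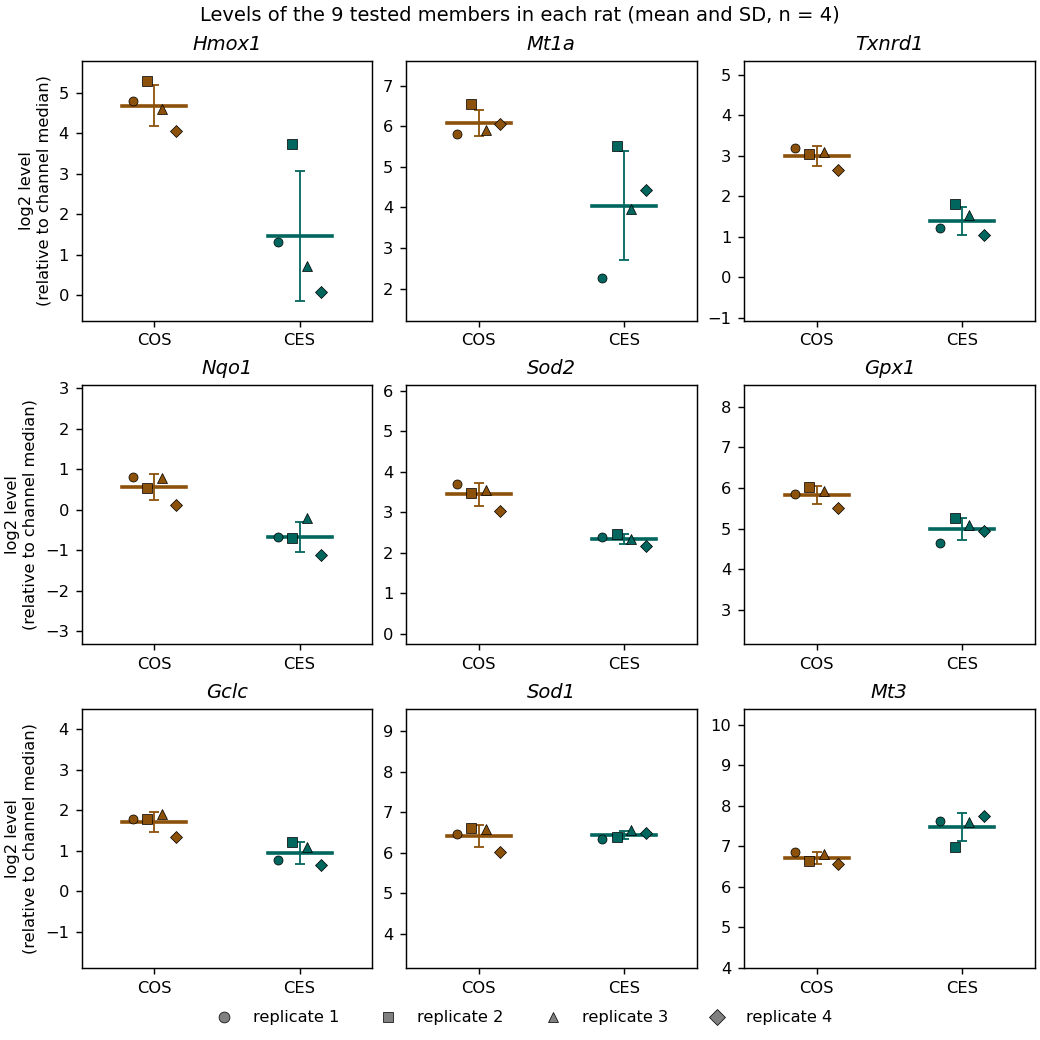
Log2 level relative to the channel median (y axis) of the 9 tested members in the 4 COS and the 4 CES rats, with the bar at the group mean, the whiskers at 1 SD, and 1 marker shape for each replicate. The panels span the same number of log2 units, so that Hmox1 and Mt1a stand out by the size of their difference and Sod1 by the overlap of its groups.

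Hmox1, the inducible heme oxygenase that splits heme into biliverdin, iron and carbon monoxide, showed the largest difference of the 9 members. Its level was 4.80, 5.29, 4.60 and 4.05 in COS replicates 1 to 4 and 1.32, 3.74, 0.72 and 0.09 in CES replicates 1 to 4. The COS rats were high throughout, whereas the CES rats were spread out, with replicate 2 close to the COS rats and the other three far below them. Hmox1 was 9.33-fold lower in CES, a log2 difference of −3.22 ± 0.65 (standard error of the fit, limma adjusted p = 0.00699), or −2.97 after subtracting the all-gene median. The difference was −3.68 between the Cy3 rats and −2.76 between the Cy5 rats, and without CES replicate 2 it was −4.05 (limma adjusted p = 1.32e-05). Without COS replicate 3 it was −3.10 and was no longer called (limma adjusted p = 0.0600). Over the 24 alternatives computed, the adjusted p ran from 1.32e-05 to 0.115.

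The array carried a single Hmox1 probe on 10 spots, which gives a repeated reading of the same RNA. The probe lies at chr19:13969336-13969395 of the rn4 build on the plus strand, from base 922 of the Hmox1 transcript, and its sequence is shown because every Hmox1 value was read from it.
Hmox1 probe: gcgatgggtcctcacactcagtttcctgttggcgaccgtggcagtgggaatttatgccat
The lowest and highest of the 10 spots were 4.19 and 4.97 in COS replicate 3 and 3.62 and 4.46 in COS replicate 4. They were 3.29 and 4.30 in CES replicate 2 and −0.11 and 0.35 in CES replicate 4. The SD over the spots of a rat was 0.16 to 0.29, far below the distance between CES replicate 2 and the other CES rats. The difference of CES and COS ran from −3.63 to −2.90 over the spots, and every CES rat lay below every COS rat on 9 of the 10 spots. Some of these spots carried an outlier mark of the scanner software in COS replicates 3 and 4 and in CES replicates 1 and 2, and marked spots were kept.

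**Figure D2:**
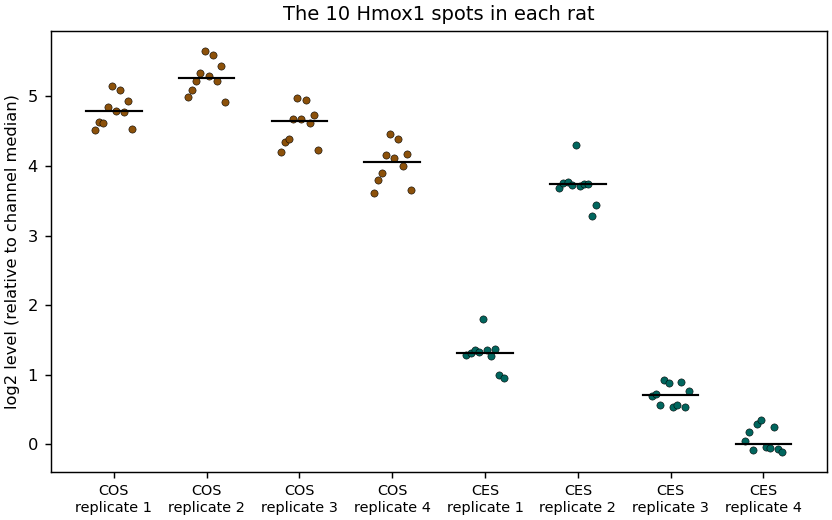
Log2 level relative to the channel median (y axis) of the 10 spots of the Hmox1 probe in each of the 8 rats, with a line at the median of the spots. The spots of CES replicate 2 lie between 3.29 and 4.30, beside those of COS replicate 4, and those of the other CES rats lie at or below 1.81.

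The 5 gene names whose level followed Hmox1 most closely over the 8 rats were Aopep, an aminopeptidase, with Pearson's r of 0.995, the RNA helicase gene Ddx39a with 0.994, the transcript XM_225467 with 0.994, Inhba, the βA subunit of activin and inhibin, with 0.993, and Ssr4, a subunit of the translocon-associated complex, with 0.991. These coefficients include the difference between the groups, and the rats share a slide and, in pairs, an array. Inhba was lower in CES by a log2 difference of −4.32 ± 0.71 and Ddx39a by −1.93 ± 0.35.

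Markers of microglia and macrophages, cells in which Hmox1 is inducible, had a lower summed level in every CES rat than in any COS rat. The difference did not pass the adjusted test. Complete separation in this list and the blood leukocyte list alone could not bring an adjusted p under 0.05. The log2 of their summed level was 7.51 to 8.08 in COS and 6.12 to 7.22 in CES, a difference of −1.04 (exact permutation test, two-sided, p = 0.0286, below which no p can go with 4 rats in each group; adjusted over 8 marker lists p = 0.114). Of the 8 genes of that list 5 were called lower, against 28.3% of all genes, and 1 was called higher, against 5.79%. The higher one, P2ry12, named here after its values were seen, differed by 0.93 ± 0.20. Aif1 (−0.32 ± 0.19) and Cx3cr1 (−0.43 ± 0.19) were not called. The sum comes mostly from C1qb (−1.35 ± 0.30) and C1qa (−0.86 ± 0.30), which are among those called lower. Of the 6 blood leukocyte markers, 2 had a spot valid in all rats, Ccr2, S100a8 and S100a9 not among them, and the sum of these 2 was 2.06 to 3.52 in COS and −0.33 to 1.50 in CES. The astrocyte sum differed by 0.01 (0.32 after loess), with ranges of 7.50 to 7.64 in COS and 7.29 to 7.97 in CES. Its 7 genes did not go one way, with 3 called higher, against 5.79% of all genes, and 1 called lower, against 28.3%. The lower one was S100b (−2.22 ± 0.76), and Gfap stood at −1.19 ± 0.44 and was not called. The part of these cells in the Hmox1 difference was not tested, and in bulk tissue fewer cells of a type and less RNA per cell cannot be told apart. The sums of neuron, oligodendrocyte, endothelium, choroid plexus and red blood cell markers differed by −0.05, 0.23, −0.06, 0.46 and −0.42. Each had an adjusted p of 0.914 in the exact permutation test. After loess those of neuron and endothelium markers turned to 0.22 and 0.26. Single genes of these 2 lists went both ways. Of 5 neuron genes, Nefl was called lower (−0.82 ± 0.19) and Syt1 higher (0.59 ± 0.17). Of 5 endothelium genes, Flt1 (−1.04 ± 0.23) and Tek (−0.81 ± 0.26) were called lower and Slco1a4 (0.72 ± 0.16) higher. The endothelium sum comes mostly from Cldn5 (−0.25 ± 0.17, not called). In all genes, 28.3% were lower and 5.79% higher. Choroid plexus markers stood far higher in COS replicate 2, at 9.32, than in the other COS rats, at 3.80 to 5.64. In CES replicates 1 to 4 they stood at 5.77, 7.63, 4.13 and 7.68. Without COS replicate 2, 7 members were lower and 1 higher. That fit still holds CES rats with high choroid plexus markers, and the share of all genes called in it is not given. The part of choroid plexus tissue in the differences was not tested.

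**Figure D3:**
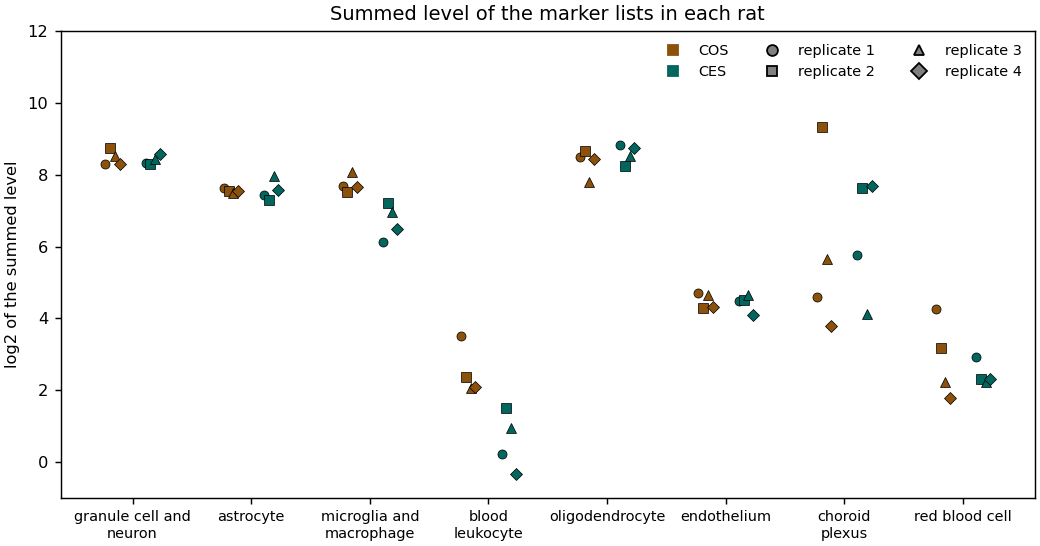
Log2 of the summed level (y axis) of 8 lists of cell type markers in each of the 4 COS and the 4 CES rats. The groups do not overlap for the microglia and macrophage list and for the blood leukocyte list, and they overlap for the other lists. The blood leukocyte sum holds Plac8 and Ptprc only and comes mostly from Plac8. The microglia and macrophage sum comes mostly from C1qb and C1qa.

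The other Nrf2-linked enzymes were lower in CES by smaller amounts. Nqo1, which reduces quinones with both electrons at once and so avoids a reactive semiquinone, stood at 0.80, 0.53, 0.77 and 0.12 in the COS rats and at −0.68, −0.69, −0.20 and −1.11 in the CES rats. The groups did not overlap, and CES replicate 3 was the CES rat nearest to COS. Nqo1 was 2.34-fold lower in CES (log2 difference −1.23 ± 0.19, limma adjusted p = 0.00390), or −0.97 after subtracting the all-gene median, with −1.23 in the Cy3 rats and −1.23 in the Cy5 rats. Its probe lies at chr19:37256979-37257038 of rn4 on the minus strand, from base 195 of the transcript.
Nqo1 probe: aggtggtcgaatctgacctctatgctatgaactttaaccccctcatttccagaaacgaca

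Txnrd1 codes for the cytosolic thioredoxin reductase, a selenoprotein that passes electrons from NADPH to thioredoxin. Its level was 3.19, 3.05, 3.09 and 2.65 in the COS rats and 1.21, 1.81, 1.54 and 1.04 in the CES rats, with a wide gap between the groups. Txnrd1 was 3.02-fold lower in CES (log2 difference −1.60 ± 0.21, limma adjusted p = 0.00362), or −1.34 after subtracting the all-gene median. Among the members tested it kept its call in the most settings, 23 of 24. Of its 4 probes, 3 were valid in all rats, and fitted singly they differed by −1.93 ± 0.23, −1.36 ± 0.20 and −0.87 ± 0.32 (limma adjusted p over all probes 0.00302, 0.00353 and 0.0615). The weakest difference came from the probe nearest to the start of the transcript, from base 497, whose sequence is shown for that reason and whose rn4 position, chr7:23073062-23074940 on the minus strand, spans far more than the 60 bases of the probe.
Txnrd1 probe from base 497: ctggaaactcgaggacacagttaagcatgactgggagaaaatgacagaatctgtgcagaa
The other probes start at base 2218 and base 2409 of the same transcript. The remaining probe, designed on the expressed sequence tag AA955679 and lying on the opposite strand, was not valid in 1 CES rat and was not used.

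Gclc codes for the catalytic subunit of glutamate-cysteine ligase, the rate-limiting enzyme of glutathione synthesis. Its level was 1.79, 1.78, 1.90 and 1.33 in the COS rats and 0.78, 1.22, 1.09 and 0.65 in the CES rats. The lowest COS rat and the highest CES rat lay close together, and the other rats lay further apart. Gclc was 1.70-fold lower in CES (log2 difference −0.76 ± 0.20, limma adjusted p = 0.0163), or −0.51 after subtracting the all-gene median. This was the least stable of the 8 calls: it was lost in 11 of 24 alternatives, among them loess (−0.39, adjusted p = 0.0949), with a highest adjusted p of 0.542 and a lowest of 0.00337. Leaving out COS replicate 1, COS replicate 3 or CES replicate 1 gave −0.76, −0.69 and −0.66 with limma adjusted p of 0.0546, 0.103 and 0.0741. Gclm, the modifier subunit of the same enzyme, was not measurable here: its foreground was 1.31 to 1.80 times its background and no rat had a valid spot. Its only probe has a GC content of 15.0%.

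Sod2, the manganese superoxide dismutase of mitochondria, turns superoxide into hydrogen peroxide. Its level was 3.70, 3.47, 3.55 and 3.04 in the COS rats and 2.40, 2.46, 2.33 and 2.16 in the CES rats. The CES rats lay within a narrow band, and all of them were below the lowest COS rat. Sod2 was 2.15-fold lower in CES (log2 difference −1.10 ± 0.17, limma adjusted p = 0.00410), or −0.85 after subtracting the all-gene median. Sod1, the copper-zinc enzyme of the cytosol, catalyzes the same reaction. Its level was 6.45, 6.61, 6.59 and 6.01 in the COS rats and 6.34, 6.38, 6.56 and 6.48 in the CES rats, so the groups overlapped. The difference was 0.03 ± 0.18 (limma adjusted p = 0.924), or 0.28 after subtracting the all-gene median. Its 2 probes gave 0.14 ± 0.19 and −0.14 ± 0.18, and the sign was not stable, with differences from −0.12 to 0.43 over the alternatives. Whether Sod1 and Sod2 differed from each other in their response was not tested.

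Gpx1, the cytosolic glutathione peroxidase, is a selenoprotein that reduces hydrogen peroxide with glutathione. Its level was 5.85, 6.02, 5.92 and 5.51 in the COS rats and 4.64, 5.27, 5.09 and 4.93 in the CES rats. All CES rats lay below all COS rats, and CES replicate 1 was the lowest. Gpx1 was 1.79-fold lower in CES (log2 difference −0.84 ± 0.19, limma adjusted p = 0.0111), or −0.59 after subtracting the all-gene median. Its 2 probes gave −0.87 ± 0.19 and −0.82 ± 0.20, and the second of them starts at base 600 of the transcript.
Gpx1 probe from base 600: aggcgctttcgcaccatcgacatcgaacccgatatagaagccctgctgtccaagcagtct
The call was lost without COS replicate 3 (−0.77, limma adjusted p = 0.0817) and without CES replicate 1 (−0.71, limma adjusted p = 0.0532), and the adjusted p ran from 0.00222 to 0.401 over the alternatives.

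The metallothioneins, small cysteine-rich proteins that bind zinc and copper, went in opposite directions. Mt1a, the classic inducible form, which RefSeq now names Mt1, stood at 5.82, 6.55, 5.90 and 6.07 in the COS rats and at 2.27, 5.51, 3.95 and 4.44 in the CES rats. The COS rats were close to each other and the CES rats were spread out, with replicate 2 the nearest to COS and replicate 1 the farthest. Mt1a was 4.11-fold lower in CES (log2 difference −2.04 ± 0.42, limma adjusted p = 0.00729), or −1.79 after subtracting the all-gene median. The difference was −2.75 between the Cy3 rats and −1.33 between the Cy5 rats. After loess it was −1.74 (limma adjusted p = 0.0531) and without COS replicate 3 −1.84 (limma adjusted p = 0.0769), and over its 23 alternatives the adjusted p ran from 6.52e-04 to 0.180. Mt1a rests on 1 spot, which the scanner software marked as an outlier in CES replicates 1 and 2, so that it could not be tested with marked spots left out.

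Mt3, the form found mainly in the brain and known as growth inhibitory factor, was the single member higher in CES. Its level was 6.86, 6.63, 6.81 and 6.56 in the COS rats and 7.62, 6.97, 7.60 and 7.74 in the CES rats. All CES rats were above all COS rats, with CES replicate 2 again the nearest to COS. Mt3 was 1.70-fold higher in CES (log2 difference 0.77 ± 0.19, limma adjusted p = 0.0138), or 1.02 after subtracting the all-gene median, with 0.78 in the Cy3 rats and 0.76 in the Cy5 rats. It was not called without COS replicate 3 (0.76, limma adjusted p = 0.0776) or without CES replicate 1 (0.75, limma adjusted p = 0.0567), and over the alternatives the difference ran from 0.60 to 1.21 and the adjusted p from 0.00182 to 0.155. The 3 astrocyte markers called higher in CES were Gjb6 (2.27 ± 0.47), Gja1 (1.27 ± 0.40) and Aldh1l1 (1.23 ± 0.24), named here after their values were seen. Of the other genes of that list, S100b was called lower (−2.22 ± 0.76), and Gfap (−1.19), Aqp4 (0.04) and Slc1a3 (−0.07) were not called. Among the CES rats, replicate 2 was lowest for Mt3 and for the 3 higher markers. The same held for genes outside that list that were called higher, such as Mgst3, Me1 and Slc30a3. The part of astrocytes in the Mt3 difference was not tested. Mt2A, a neighbor of Mt1a in the genome and inducible like it, stood at 6.82, 6.58, 6.30 and 6.74 in the COS rats and at 3.87, 6.47, 4.98 and 4.48 in the CES rats. CES replicate 2 lay within the COS range and the other CES rats lay well below it, and Mt2A was lower by −1.66 ± 0.42 (limma adjusted p = 0.0163), a call lost after loess (−1.33, limma adjusted p = 0.122). Whether the probes of these similar genes share signal was not tested.

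The promoters of these 3 genes are shown because the genes lie side by side on chromosome 19 and differ in direction. They are the 250 bases before the start of each gene in RefSeq on GRCr8, all on the minus strand, at chr19:10832976-10833225 for Mt1a, chr19:10838709-10838958 for Mt2A and chr19:10856081-10856330 for Mt3. Capitals mark the letters of the MRE core (TGCACNC or TGCGCNC), the ARE core (TGACNNNGC) and the AP-1 site (TGAGTCA), searched on both strands, and the ARE and AP-1 letters of Mt2A overlap.
Mt1a: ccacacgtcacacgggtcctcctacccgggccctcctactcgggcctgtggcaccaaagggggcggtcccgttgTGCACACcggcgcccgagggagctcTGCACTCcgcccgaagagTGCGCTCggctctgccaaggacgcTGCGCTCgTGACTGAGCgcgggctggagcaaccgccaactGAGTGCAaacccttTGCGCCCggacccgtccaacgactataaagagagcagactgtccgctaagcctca
Mt2A: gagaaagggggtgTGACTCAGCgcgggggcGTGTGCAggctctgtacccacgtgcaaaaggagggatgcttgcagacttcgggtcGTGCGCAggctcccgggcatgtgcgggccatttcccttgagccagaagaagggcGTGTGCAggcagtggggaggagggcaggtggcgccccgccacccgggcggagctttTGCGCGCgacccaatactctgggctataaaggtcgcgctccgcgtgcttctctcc
Mt3: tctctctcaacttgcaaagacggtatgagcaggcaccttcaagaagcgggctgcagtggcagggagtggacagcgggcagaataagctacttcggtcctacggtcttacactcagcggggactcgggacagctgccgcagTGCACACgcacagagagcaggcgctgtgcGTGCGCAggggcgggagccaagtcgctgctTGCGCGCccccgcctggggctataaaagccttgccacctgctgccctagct
The MRE core was found 6 times in Mt1a, 4 times in Mt2A and 3 times in Mt3, and 20.6% of the 33469 RefSeq promoters of this length hold it at least once and 1.17% at least 3 times. The ARE core was found once each in Mt1a and Mt2A and not in Mt3, and 10.1% of all promoters hold it. The AP-1 letters were found in Mt2A, and 4.05% of all promoters hold them. Among the promoters of the other members, the ARE core was found in Gclm and Sod2 and not in Nqo1, Gclc, Txnrd1, Gpx1 and Sod1, and the MRE core in Gclm. No palindromic estrogen response element (GGTCA and TGACC with any 3 bases between them), held by 0.0239% of all promoters, was found in the 9 promoters of members that the table holds. Hmox1 has no entry in that table. These matches are letters within a short window and do not show binding.

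Among the gene names that followed Mt1a most closely over the 8 rats were the transcript XM_226847 with Pearson's r of 0.992, Rpl6 with 0.989, ENSRNOT00000024516 with 0.988 and CV117922 with 0.986. Rpl6 codes for a protein of the large ribosomal subunit, and its log2 difference, −0.84 ± 0.20, was smaller than that of Mt1a.

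Across the members, CES replicate 2 was the CES rat nearest to COS for 6 of the 7 lower genes, all but Nqo1. Over all 6054 genes called lower, CES replicate 2 was the nearest for 45.7% and CES replicate 3 for 43.0%.

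**Figure D4:**
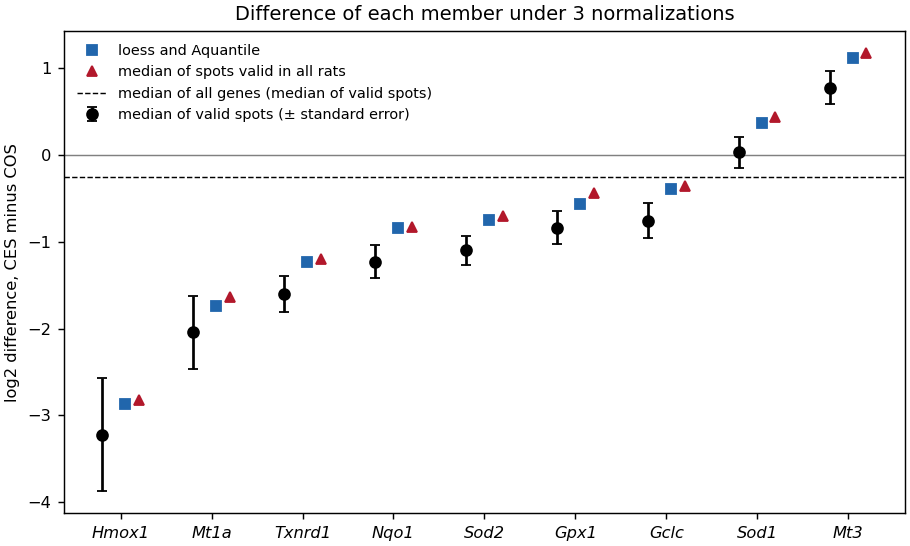
Log2 difference, CES minus COS (y axis), of the 9 tested members under 3 normalizations, with the standard error of the fit for the values scaled by the median of valid spots, and a dashed line at the median of all genes under that scaling. Hmox1, Mt1a, Txnrd1, Nqo1, Sod2, Gpx1 and Gclc lie below 0 and Mt3 above 0 under each of the 3, whereas Sod1 moves from 0.03 to higher values.

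The other genes of the pathway were counted over 9 lists with 101 genes, of which 88 could be tested. Of these 31 were lower in CES, 35.2% against 28.3% of all genes, and 7 were higher, 7.95% against 5.79%. The median difference of the 88 genes was −0.25, the same as that of all genes, against −1.10 for the members. After loess, 15 of the 88 were lower, against 8.87% of all genes, and 12 higher, against 14.2%. In the main fit without COS replicate 3, the lower and higher counts were 8 and 0. The whole array then held 1194 calls, against 7292 with all rats. Without COS replicate 1 the counts were 20 and 3, and without CES replicate 1 they were 16 and 3. Without COS replicate 4, 3 were higher. The calls over all genes without COS replicate 1, COS replicate 4 or CES replicate 1 are not given. These counts therefore cannot be read as particular to the pathway genes.

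Among the regulators of the pathway, 3 of 6 were lower, against 28.3% of all genes, and none was higher, against 5.79%. After loess 2 of 6 were lower, against 8.87% of all genes, and none was higher, against 14.2%. With only 6 genes, the absence of higher ones cannot be read as particular to this list. Nfe2l2, which codes for Nrf2, stood at 3.01, 2.71, 3.28 and 2.61 in the COS rats and at 1.51, 1.49, 1.54 and 1.22 in the CES rats. The groups lay well apart and the CES rats were close together. Nfe2l2 was lower by −1.46 ± 0.16 (limma adjusted p = 0.00294) and was called in 23 of 24 alternatives. The small Maf partners Mafk and Mafg were lower by −1.48 ± 0.29 and −0.83 ± 0.20, and Mafg was not called after loess (−0.49, limma adjusted p = 0.0640). Keap1 differed by −0.02, Sqstm1 by −0.07 and Cul3 by −0.42, and none of these was called. Spots for Bach1, Maff and Nfe2l1 were not valid in all rats.

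In the glutathione system, 5 of 20 genes (25.0%, against 28.3% of all genes) were lower and 1 (5.00%, against 5.79%) was higher. After loess 2 were lower, against 8.87% of all genes, and 3 higher, against 14.2%. Chac1, which degrades glutathione, was lower by −1.71 ± 0.29, Slc3a2, the heavy chain of the cystine transporter, by −1.31 ± 0.24, and the microsomal transferase gene Mgst1 by −1.02 ± 0.29, which was not called after loess (−0.63, limma adjusted p = 0.230). Mgst3 was higher by 1.01 ± 0.24. The glutathione reductase gene Gsr differed by 0.08 and Gpx4 by −0.10, neither of them called. Slc7a11, the light chain of the cystine transporter, had no spot valid in all rats.

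In the thioredoxin and peroxiredoxin system, to which Txnrd1 belongs, 5 of 15 genes (33.3%, against 28.3% of all genes) were lower. A further 2 (13.3%, against 5.79%) were higher. After loess 2 were lower, against 8.87% of all genes, and 3 higher, against 14.2%. Srxn1, which repairs overoxidized peroxiredoxins, was lower by −1.55 ± 0.29, the sestrin gene Sesn2 by −1.37 ± 0.25 and the peroxiredoxin gene Prdx5 by −0.72 ± 0.20, which was not called after loess (−0.37, limma adjusted p = 0.226). Srxn1 and Sesn2 were well above background in all 4 COS rats and in 2 CES rats each. Sesn1 was higher by 0.64 ± 0.20 and Txnrd3 by 0.53 ± 0.17, while the mitochondrial reductase gene Txnrd2 differed by −0.39 and was not called.

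None of the 5 other genes that remove superoxide and peroxide was called, where 28.3% of all genes were lower and 5.79% higher. Among them, the catalase gene Cat and the extracellular dismutase gene Sod3 differed by −0.05 and −0.38. Of the 12 genes of heme and iron handling, 2 (16.7%, against 28.3% of all genes) were lower and none was higher. After loess 1 was lower, against 8.87% of all genes, and 1 higher, against 14.2%. Ceruloplasmin, Cp, was lower by −1.95 ± 0.38 and the ferritin light chain gene Ftl1, which stores the iron that heme breakdown frees, by −0.76 ± 0.21, which was not called after loess (−0.46, limma adjusted p = 0.0869). Cp was well above background in 4 COS rats and in 2 CES rats. Hmox2, the constitutive heme oxygenase, stood at a difference of 0.12 and the biliverdin reductase genes Blvra and Blvrb at −0.23 and 0.40, and none of them was called.

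Of the 5 genes of the metallothionein and zinc list, Mt2A and the zinc importer gene Slc39a14 (−1.57 ± 0.24) were lower, and Slc30a3, which loads zinc into synaptic vesicles, was higher by 1.10 ± 0.26, and after loess 1 gene of the list was lower and 2 were higher. Of all genes, 28.3% were lower and 5.79% higher, and after loess 8.87% were lower and 14.2% higher. Mtf1 differed by −0.35 and was not called. Of the 6 genes of NADPH supply, 2 (33.3%, against 28.3% of all genes) were lower, among them Taldo1 (−0.58 ± 0.19). None was lower after loess, against 8.87% of all genes (Taldo1 −0.30, limma adjusted p = 0.157). The malic enzyme gene Me1 was higher by 0.77 ± 0.19 (16.7% of the list, against 5.79%). Of the 9 genes of quinone and aldehyde detoxification, 4 (44.4%, against 28.3% of all genes) were lower, and 3 after loess (against 8.87%). Among the lower ones were Cbr3 at −1.78 ± 0.27, Osgin1 at −1.40 ± 0.27 and Akr1b8 at −1.12 ± 0.25 (after loess −0.73, limma adjusted p = 0.0595). Of the same list, Aox1 was higher by 1.13 ± 0.32 and Aldh1a1 by 0.76 ± 0.25 (22.2%, against 5.79%). Osgin1 was well above background in 3 COS rats and 1 CES rat.

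The enzymes that produce oxidants held the largest share of lower genes among the 9 lists, with 8 of 10 lower and none higher, against 28.3% and 5.79% of all genes. After loess 4 of the 10 were lower, against 8.87%. Ncf4, a cytosolic subunit of the phagocyte NADPH oxidase, stood at 3.67, 2.89, 3.82 and 3.32 in the COS rats and at −0.57, 2.38, −0.11 and −0.98 in the CES rats. As in Hmox1, CES replicate 2 was near the COS rats and the other CES rats were far below. Ncf4 was lower by −3.25 ± 0.62 (limma adjusted p = 0.00592), Cyba, the membrane subunit p22phox of the same enzyme, by −2.37 ± 0.35 and Nox1 by −2.15 ± 0.50. Nox1 was well above background in 4 COS rats and 1 CES rat. The summed microglia and macrophage markers, cells that carry the phagocyte oxidase, were at 7.51 to 8.08 in COS and at 6.12 to 7.22 in CES, and their part in this result was not tested. Nos1, the neuronal nitric oxide synthase, differed by 0.26 and was not called. It was well above background in 0 COS rats and 2 CES rats, so its level was near the floor.

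**Figure D5:**
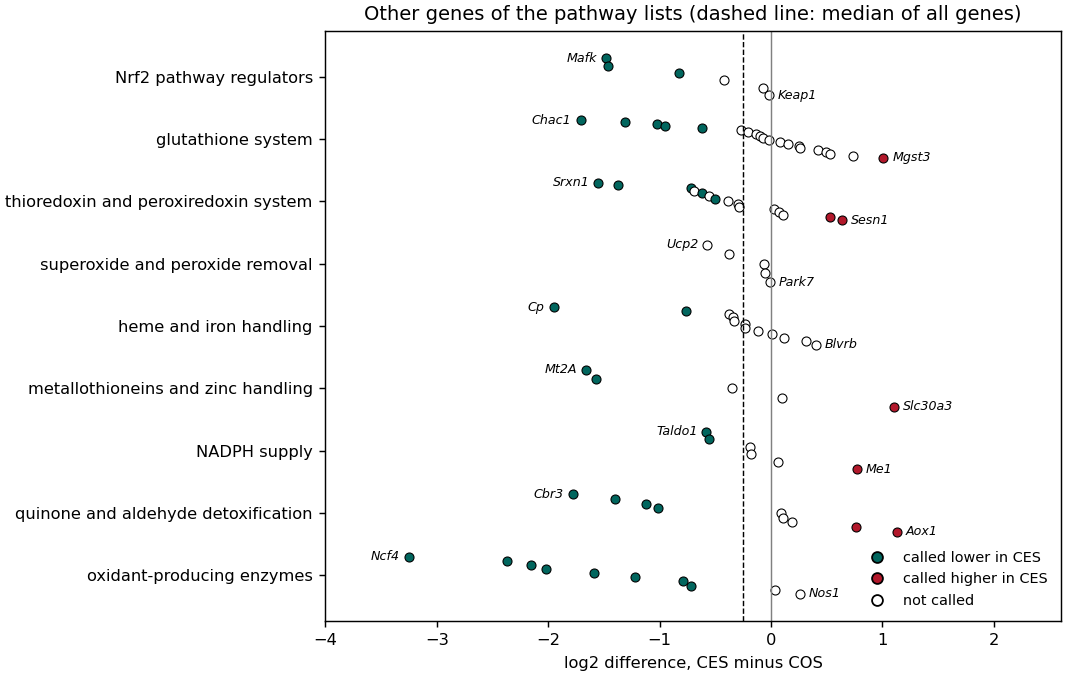
Log2 difference, CES minus COS (x axis), of the 88 tested genes in the 9 pathway lists (y axis), 1 point for each gene, filled where limma called it, with the lowest and the highest gene of each list named and a dashed line at the median of all genes. Of the 10 oxidant-producing enzymes 8 are called lower, against 28.3% of all genes. None of the 5 genes of superoxide and peroxide removal is called, where 28.3% of all genes are lower and 5.79% higher.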

How the data were processed

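Total RNA of the DG of 4 COS and 4 CES rats, each a separate animal per the labels, was hybridized to 4 2-colour arrays, each with 43379 non-control spots. The deposited scanner files give an intensity per spot and channel and that of the surrounding background, extracted with Agilent Feature Extraction 10.7.3.1 per the labels and not normalized. A log2 table by the authors is also deposited, each column equal to the log2 of the median signal minus background, centred on its median. Only the intensities entered the main values.

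Following the methods in part, the mean signal minus the background median of valid spots (foreground at least 2 times background) was scaled to the channel median of such spots. It was then averaged per gene over the spots valid in all rats (27642 spots) and taken to log2. The methods' further step, an iterative renormalization across labels and conditions, was not applied. Marked outlier spots were kept, and no spot was saturated. Probes were named through RefSeq accessions (17512 of 41012 probes) or else as the files name them, with probe positions on rn4 from the files. RefSeq promoters are on GRCr8. CES and COS were compared by limma 3.58.1 (R 4.3.3). The dye was a covariate and each array a random effect (duplicateCorrelation, correlation −0.00653, statmod 1.5.0), and tests were two-sided with Benjamini-Hochberg adjustment over 21372 gene names at 0.05. An array holds rats of 1 group, so the array and the group cannot be told apart except through that block. The fit was tested on simulated data. Marker sums were compared by exact permutation tests. The number of arrays limits the precision, and the median standard error of a difference was 0.20. Alternatives covered background correction (normexp, offset 50, and the processed signal), loess with Aquantile, quantile and all-rat scaling, filters, probe summaries, gene names, outlier spots, the deposited values, the model terms, the replicate number as a block, the methods' test with unequal variances, and leaving out each rat. The single-dye values and single-probe fits were chosen after seeing the data. The members, the lists of genes and the markers were chosen with earlier results of these data known. All 10 members are named, and of each pathway list at most the 3 largest called differences in each direction, with a few genes that were not called given as values for context, chosen after their values were seen. A few genes and a probe sequence that this rule would name are not reported here. Python 3.11.15, numpy 2.4.6, pandas 2.3.3, the data.table package (1.17.8) and matplotlib 3.10.9 were used.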

Additional observations from a re-analysis of the deposited data

Results flagged for a closer look

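Of 90 groups of 4 rats examined for members, named pathway genes and marker sums, 6 held 1 rat far from the other three, where chance gives about 1 in 20 groups. In CES replicate 4, Nfe2l2 stood at 1.22 against 1.49 to 1.54 in the other CES rats, and Osgin1 at −3.13 against −2.06 to −1.89. In CES replicate 2, Mgst3 stood at 5.69 against 6.67 to 6.85. In CES replicate 1, Ftl1 stood at 6.34 against 7.12 to 7.22, and the summed red blood cell markers at 2.92 against 2.22 to 2.31. In COS replicate 3, Sesn1 stood at 1.69 against 1.01 to 1.13. None of the 9 tested members was among them: CES replicate 2 stood apart in Hmox1, but not by this measure.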

How the results depend on the processing

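The directions of the 8 called members held under all alternatives computed, and that of Sod1 did not. The study's own rule corrects p for redundant spots of the same gene and adds a fold-change cut-off for each gene, and neither was applied here. The methods' test with unequal variances, here with Benjamini-Hochberg adjustment over all genes, called no gene of the array. It held 6114 genes at an unadjusted p under 0.05, against 9657 by limma. It left the differences as they were (Hmox1 −3.22, Nqo1 −1.23, Gclc −0.76, Sod2 −1.10, Gpx1 −0.84, Mt1a −2.04, Mt3 0.77, Txnrd1 −1.60) and called 0 members and 0 pathway genes in either direction. With normexp, 3 members were lower and 0 higher, with Nqo1 at −0.74, Gclc at −0.52, Sod2 at −0.87, Gpx1 at −0.65 and Mt3 at 0.95 not called, and 6 pathway genes were lower and 0 higher. With scaling to the spots that all rats share, 4 members were lower, with Gclc at −0.36, Gpx1 at −0.44 and Mt1a at −1.64 not called, and 14 pathway genes were lower and 15 higher. After loess, Gclc at −0.39 and Mt1a at −1.74 were not called, and 15 pathway genes were lower and 12 higher. After quantile normalization Gclc was at −0.38, with 16 lower and 12 higher, and in the deposited log2 table it was at −0.38, with 14 lower and 13 higher. Without the filter on valid spots, Gclc at −0.76, Gpx1 at −0.84 and Mt3 at 0.77 were not called, 0 members were higher, and 18 pathway genes were lower and 0 higher. With the filter raised to 3 times background, Gclc was at −0.64 and 17 pathway genes were lower. The Txnrd1 probe from base 497 gave −0.87. Sod1 was below 0 with the processed signal (−0.02) and with 1 of its 2 probes (−0.14). The marker sums that changed sign were the neuron list at 0.22 after loess and 0.35 with all-rat scaling, and the endothelium list at 0.26 and 0.34. In each case the cause was not tested. Apart from loess and the methods' test, the share of all genes called under these settings is not given. The counts under them therefore cannot be read as particular to the members or the pathway genes.

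Leaving out 1 rat at a time gave 3 to 7 lower and 0 to 1 higher members, and 8 to 32 lower and 0 to 10 higher pathway genes, and over the whole array at least 1194 calls, without COS replicate 3, against 7292. The differences ran from −4.05 to −2.43 for Hmox1, −1.31 to −1.12 for Nqo1, −0.90 to −0.66 for Gclc, −0.12 to 0.13 for Sod1, −1.22 to −1.04 for Sod2, −0.98 to −0.71 for Gpx1, −2.39 to −1.53 for Mt1a, 0.60 to 0.93 for Mt3 and −1.78 to −1.48 for Txnrd1. With the replicate number as a block, 7 members were lower and 1 higher, and 29 pathway genes were lower and 6 higher. The share of all genes called is not given for that block or for the fits that left out a rat other than COS replicate 3. No member call changed under that block. Same-numbered rats of the groups share only a dye and a number: their deviations from the group and dye means correlated by −0.28 to 0.08, so the numbers were not taken to pair the rats. A gene whose spot does not reach 2 times its background, such as Gclm, has no level in the main values.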
